A study of Homo sapiens with 14 samples.

Results

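The experiment described here compared CWR22RV1 cells treated with SGN-2FF with the same cells kept in DMSO, the vehicle. It made up 6 of the 14 RNA-seq libraries of the series, chosen by their labels and not by any measured value. There were 3 libraries of cells in DMSO and 3 of cells in 100 μM SGN-2FF, each after 72 h. The other libraries came from cells treated with 30 μM Fucotrim I (3), 60 μM Fucotrim II (2) or 2 μM P-SiaFNEtoc (3). CWR22RV1 is an established human prostate cancer cell line. Every library came from this 1 line in culture, so no result reaches beyond 1 genetic background. The study's methods state 3 biological repeats per condition, and doses and times also come from those methods. The counts on genes added up to between 15407077 and 17698731 in the DMSO libraries and between 12950695 and 16579157 in the SGN-2FF libraries.

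Fucose is a sugar that fucosyltransferases attach to N-glycans, O-glycans and some proteins, among them the Notch receptors, from the donor GDP-fucose. Cells make GDP-fucose from GDP-mannose in the de novo pathway, through GMDS and GFUS, or salvage free fucose through FCSK and FPGT. SGN-2FF is 2-fluorofucose, a fucose analogue that cells activate as they would fucose. The product occupies fucosyltransferases in place of the natural donor, and less GDP-fucose is made from GDP-mannose. Androgen response genes, such as those of the kallikreins KLK2 and KLK3, are the best known readout of hormone signalling in prostate cells. Metallothioneins are small proteins that bind zinc and copper and are induced through the factor MTF1. NRF2, encoded by NFE2L2, induces genes against oxidative stress, and ATF4 induces genes of amino acid uptake and synthesis.

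The libraries carried the markers of luminal prostate cells, and most blood and endothelial markers and 3 of 6 basal markers were near 0. All 12 luminal markers, FOXA1, HOXB13 and KRT8 among them, were measured in every library, with a summed level of 3242 to 3395 CPM (counts scaled to library size) in DMSO and 3938 to 4049.6 CPM with SGN-2FF. The basal markers TP63, KRT5 and KRT14 had at most 5 counts in any library. The other 3, KRT15, ITGB4 and NGFR, together had 5.32 to 6.003 CPM in DMSO and 6.02 to 6.96 CPM with SGN-2FF, and 0 passed. The stromal markers COL1A2, DCN and PDGFRB also had at most 5. The other 4 of the 7 stromal markers together had 21.9 to 23.6 CPM in DMSO and 21.9 to 24.99 CPM with SGN-2FF, mostly from COL1A1. Of 8 blood and endothelial markers, 7 had at most 3 counts per library, and the other, CD68, shares 81.6% of its exon bases with a gene on the same strand. CD68 was higher (log2 fold change 0.46), a call lost in 6 of 16 alternative ways of processing. In 4 of these 1 library was left out (adjusted p = 0.0898 from edgeR's test without SGN-2FF replicate 1). Of 8 neuroendocrine markers, CHGB, ENO2 and SYP passed the filter on low counts, and the other 5, CHGA, INSM1, NCAM1 and NEUROD1 among them, had at most 3 counts. CHGB, ENO2 and SYP summed to 382 to 398 CPM in DMSO and 376 to 403 CPM with SGN-2FF. CHGB, at 56.6, 53.7 and 53.6 CPM in DMSO and 64.02, 62.8 and 58.5 CPM with SGN-2FF, was higher (log2 fold change 0.18). That call was lost in 6 of the 16 alternatives, 3 of them with 1 library left out (adjusted p = 0.104 from edgeR's test without SGN-2FF replicate 2). The part of these markers in the results was not tested. Some genes that every cell uses were at or near 0 in all 6 libraries, RPS18 with 0 or 1 count, so a low count in these tables does not show that a gene was silent.

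One technical measure differed between libraries of the same condition. GC content, taken from the longest annotated transcript of 13922 genes, was set against each library's deviation from the mean of all 6 on the log2(CPM + 1) scale. Spearman's correlation across genes was -0.084, -0.462 and -0.043 in DMSO replicates 1, 2 and 3, and 0.389, 0.325 and -0.151 in SGN-2FF replicates 1, 2 and 3. These are descriptions across genes that share a library and its base composition, so they carry no p-value. DMSO replicate 2 thus stood apart from the other DMSO libraries, and SGN-2FF replicate 3 lay with the DMSO libraries. The totals below are therefore also given without each of these libraries and with a correction for GC content in each library, an alternative chosen after seeing the data. The part of GC content in any single result was not tested beyond that.

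SGN-2FF changed many genes by small amounts. Of 14312 genes tested, 2946 were differentially expressed, or 20.6%, with 1647 higher (11.5%) and 1299 lower (9.08%) than in DMSO. A gene was called differentially expressed at a Benjamini-Hochberg adjusted p-value under 0.05 from the quasi-likelihood test of edgeR. These genes changed by a median of 0.25 on the log2 scale in either direction, and 90% of all genes tested lay between -0.30 and 0.48. The larger changes leaned upward, since 381 genes (2.66%) were differentially expressed with a log2 fold change beyond 0.58, 308 of them higher and 73 lower. Beyond 1, there were 96 higher and 12 lower. The CPM of the 2 conditions did not overlap for 36% of all genes and for 96.1% of the differentially expressed ones. Without DMSO replicate 2 there were 2847 differentially expressed genes, 2419 of them also in the fit of all 6 libraries. Without SGN-2FF replicate 3 there were 3109 (2554 shared), and with the GC correction 3406 (2500 shared). Without SGN-2FF replicate 2 the number was 1642.

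**Figure D1:**
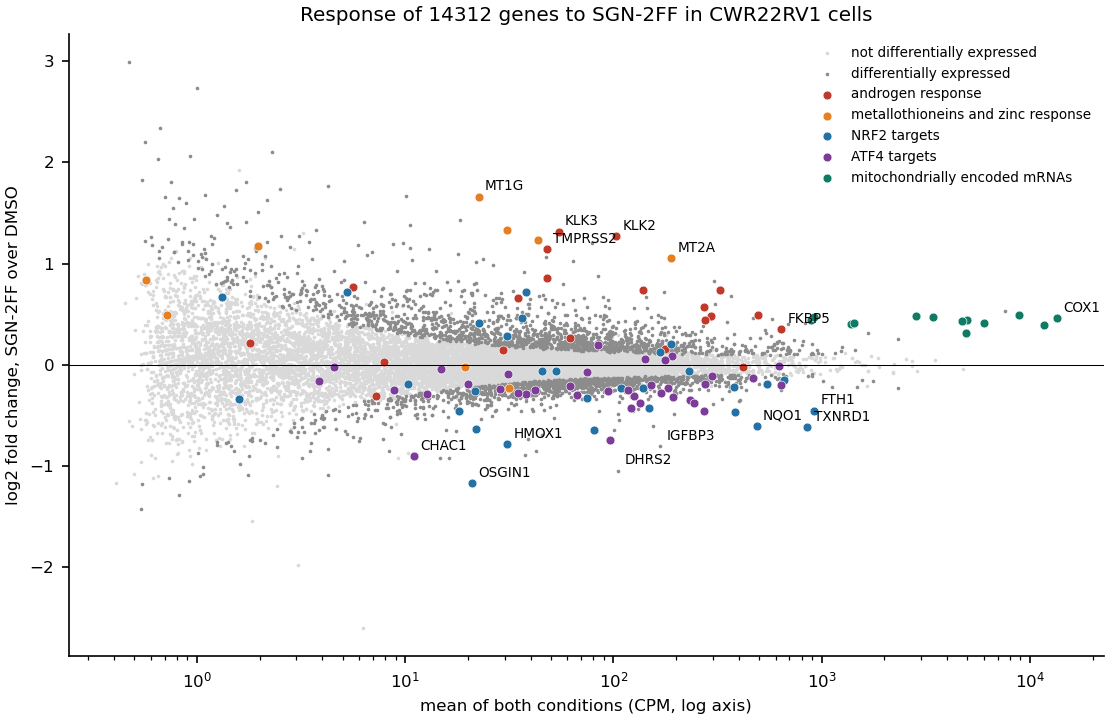
Log2 fold change of SGN-2FF over DMSO against the mean CPM of both conditions on a log axis, 1 point per gene for 14312 genes, with dark grey for differentially expressed genes. Members of 5 gene lists are coloured: androgen response genes and metallothioneins lie mostly above 0, NRF2 and ATF4 targets mostly below, and the 13 mitochondrial mRNAs lie at the right end between 0.32 and 0.49.

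The largest changes were of genes with quite different roles. Among differentially expressed genes with at least 50 counts on average and libraries that did not overlap, PPP1R1B, which encodes an inhibitor of protein phosphatase 1, rose from 5.60, 4.07 and 4.79 CPM in the 3 DMSO libraries to 17.9, 15.2 and 13.1 CPM with SGN-2FF (log2 fold change 1.67, standard error 0.13). CYP4F8, a cytochrome P450 of prostaglandin metabolism, rose from 9.86, 9.96 and 10.1 to 27.7, 26.2 and 26.6 CPM (log2 fold change 1.43, standard error 0.08). The exporter gene ABCC11 had a log2 fold change of 1.38, the pepsinogen gene PGC of 1.41 and SPOCD1 of 1.33. The highest rise by log2 fold change, that of the mitochondrial tRNA gene TRNY at 1.77, rested on counts of 16 to 109 per library and did not pass once replicate numbers entered edgeR's model as blocks (adjusted p = 0.0619). MTRNR2L8, a nuclear gene derived from the mitochondrial rRNA gene RNR2, had 1.21. Whether the authors' counting split reads between them was not tested, since MTRNR2L8 has no entry in the annotation used to compare sequences. TSPAN1, a tetraspanin gene, rose from 46.6, 46.8 and 49.4 to 118, 110.5 and 102 CPM, and TMEFF2, which encodes a membrane protein with follistatin-like domains, from 42.02, 42.3 and 41.9 to 85.1, 82.3 and 90.6 CPM. Both were among the 10 genes of smallest p. PPP1R1B, CYP4F8, ABCC11, PGC, SPOCD1, TSPAN1 and TMEFF2 kept their call in all 16 alternatives.

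The falls were fewer and smaller. DHRS2, a short-chain dehydrogenase gene of the mitochondria, was at 134, 144 and 148 CPM in DMSO and at 68.8, 72.2 and 64.6 CPM with SGN-2FF (log2 fold change -1.05, standard error 0.05). MAPK4, an atypical MAP kinase gene, fell from 20.1, 20.6 and 22.7 to 12.4, 10.6 and 10.6 CPM. RND3, a small GTPase gene, fell from 19.9, 20.03 and 17.5 to 9.93, 8.91 and 11.8 CPM. CYP1A1, the classic target of the aryl hydrocarbon receptor, fell from 50.9, 45.5 and 50.2 to 28.4, 25.6 and 25.2 CPM, a log2 fold change of -0.89. Each SGN-2FF library of these genes was below each DMSO library, but non-overlap was a condition of being named among the 12 largest falls. It held for 36% of all genes and 96.1% of the differentially expressed ones. The other falls among the 12 largest were of OSGIN1 and CHAC1, described below, RBFOX2 (-1.09), LINC00624 (-0.92), BRINP1 (-0.85), SEMA3E (-0.85), DLX3 (-0.83) and the gene with NCBI number 200058, which has no symbol in the tables (-0.86). All 12 kept their call in every alternative that tested them. The gene numbered 200058 is missing from the other inhibitors' counts, so the fit of all 14 libraries did not test it.

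Androgen response genes rose together. Of 20 members tested, 15 were higher and 0 lower, against 11.5% and 9.08% of all genes, and their median log2 fold change was 0.49, against 0.0036 for all genes. No member was lower in DESeq2 or limma-voom, and at an unadjusted p under 0.05 1 was. KLK3, the gene of prostate-specific antigen, was at 32.9, 32.5 and 28.04 CPM in the DMSO libraries and at 81.1, 74.4 and 77.8 CPM in the SGN-2FF libraries (log2 fold change 1.32, standard error 0.06, adjusted p = 9.1e-15 by edgeR, Benjamini-Hochberg adjusted). KLK2, its neighbour in the kallikrein cluster, was at 59.3, 61.1 and 60.3 CPM and at 145, 144 and 146 CPM (log2 fold change 1.27, standard error 0.05) and had the smallest p of all genes. TMPRSS2, a membrane serine protease gene, was at 29.5, 30.4 and 29.3 and at 69.7, 63.1 and 64.5 CPM (log2 fold change 1.14). The 3 SGN-2FF libraries of each of these genes lay far above the 3 DMSO libraries, with a gap several times wider than the spread within either condition. For KLK3 and KLK2, non-overlap was a condition of being named among the 12 largest rises. SLC45A3, a prostate membrane transporter gene, rose from 37.3, 30.3 and 35.1 to 68.3, 58.7 and 58.7 CPM (log2 fold change 0.85). FKBP5, which encodes a chaperone of steroid receptors, rose from 568, 582 and 537 to 729, 690 and 738 CPM. KLK15 (0.77), KLK4 (0.74) and STEAP1 (0.74), chosen after their values were seen, were higher as well. RNA was taken from whole cultures, so more cells of one state and more RNA per cell cannot be told apart, here and in the results that follow.

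Not every member of the list passed. ACP3 (0.02), ZBTB16 (0.14), STEAP4 (0.22) and ABCC4 (-0.31) were among the 5 members that did not. TRPM8 had at most 1 count. The count of higher members was 14 to 15 whichever library was left out and 15 with the GC correction. Luminal markers moved the same way, with 10 of 12 higher and 0 lower, in part through members on both lists, such as KLK3, HOXB13 and TMPRSS2. Of all genes, 11.5% were higher and 9.08% lower. The keratin gene KRT8 rose from 509, 464 and 484 to 683, 665 and 642 CPM, and FOXA1, a pioneer factor gene, had a log2 fold change of -0.04 and did not pass. In the fit of all 14 libraries, 6 luminal markers were higher.

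The 250 bases before the annotated start of KLK3 are shown because they hold the hexamer AGAACA, the core of the androgen response element. It lies 170 bases before the start and is in capitals. The sequence is from RefSeq (GRCh38.p14, chr19:50854665-50854914). On either strand this hexamer was found in 12.4% of 35116 RefSeq promoters of the same length, and in 3 of the 13 androgen response genes that have an entry. It is a match of letters and says nothing of binding in these cells.
KLK3: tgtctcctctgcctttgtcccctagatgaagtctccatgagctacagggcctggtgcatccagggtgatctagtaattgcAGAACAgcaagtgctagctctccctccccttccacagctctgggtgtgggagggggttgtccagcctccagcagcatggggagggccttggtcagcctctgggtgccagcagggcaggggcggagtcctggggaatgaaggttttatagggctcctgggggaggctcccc

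**Figure D2:**
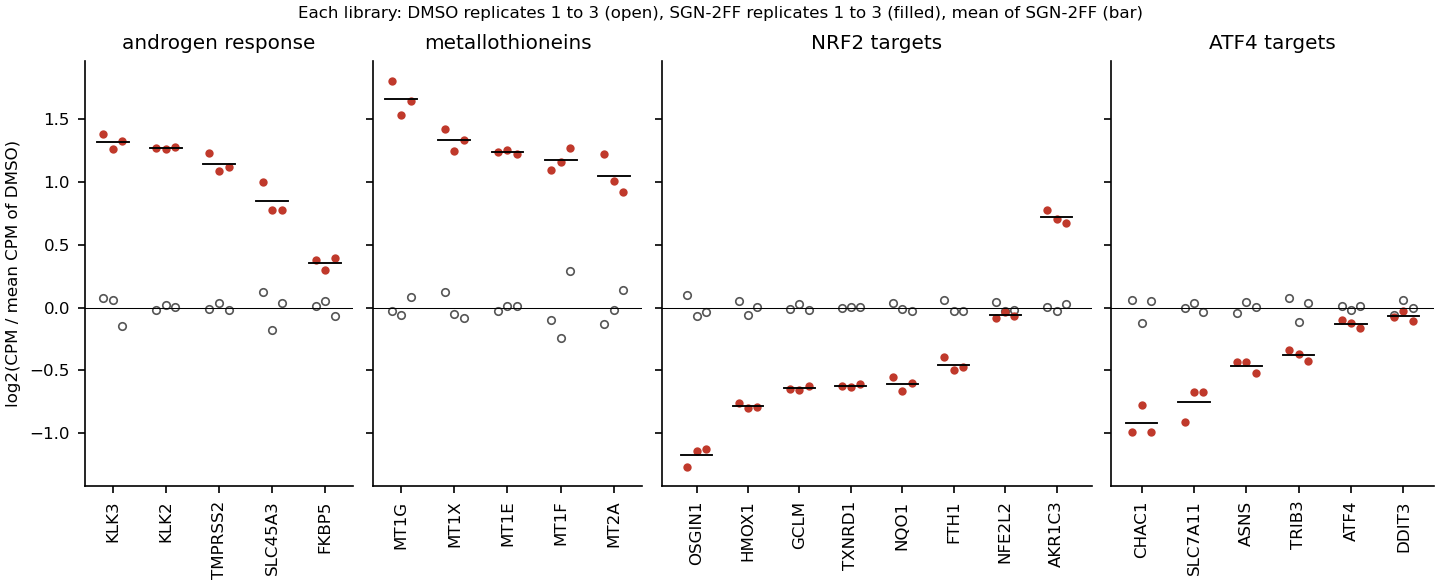
Log2 ratio of the CPM in each library to the mean CPM of the 3 DMSO libraries, for named genes of 4 lists. Open circles are DMSO replicates 1 to 3, filled circles are SGN-2FF replicates 1 to 3 and bars are the SGN-2FF means: targets separate from DMSO, while NFE2L2 and DDIT3 lie close to 0.

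Metallothionein genes had among the highest rises. MT1G was at 10.6, 10.4 and 11.4 CPM in DMSO and at 37.7, 31.3 and 33.8 CPM with SGN-2FF (log2 fold change 1.66, standard error 0.08, adjusted p = 4.04e-14 from edgeR's test). MT1X rose from 18.99, 16.9 and 16.5 to 46.8, 41.3 and 43.8 CPM, and MT1E from 25.4, 26.02 and 26.1 to 60.8, 61.4 and 60.3 CPM. MT2A, the most widely expressed family member, rose from 112, 122 and 135 to 288, 247 and 233 CPM. MT1F, at 18 to 44 counts per library, had a log2 fold change of 1.18. All 5 kept their call in every alternative and lay above DMSO in each SGN-2FF library. The conditions did not overlap for 36% of all genes and 96.1% of the differentially expressed ones. For MT1G, MT1X and MT1E, non-overlap was a condition of being named among the 12 largest rises. MT3, the brain form, had a log2 fold change of 0.84 and did not pass, and MT1A, MT1H and MT1M had at most 10 counts. Of the other genes of zinc handling, none rose. SLC30A1, a zinc exporter gene that MTF1 also induces, was at -0.02 and did not pass, SLC30A2 was at 0.49 and did not pass, and MTF1 fell, at -0.23. The call of MTF1 was lost in 4 alternatives, 2 of them with 1 library left out (adjusted p = 0.0827 from edgeR's test without DMSO replicate 2). Over the 9 genes tested, 5 were higher and 1 lower, against 11.5% and 9.08% of all genes.

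Promoters of MT1X and MT2A are shown because metallothionein promoters carry repeated metal response elements, the binding sites of MTF1. Capitals mark each match to TGCACNC or TGCGCNC on either strand, where N is any base. The MT1X sequence (chr16:56682220-56682469, plus strand) holds 4 matches and the MT2A sequence (chr16:56608334-56608583, plus strand) holds 7, and no match overlaps another. Both are from RefSeq, GRCh38.p14. At least 1 match was found in 24.8% of all 35116 promoters and at least 2 in 6.48%. Of the 6 list members with an entry, 5 held a match. MT1E, MT1F and MT1G have no entry.
MT1X: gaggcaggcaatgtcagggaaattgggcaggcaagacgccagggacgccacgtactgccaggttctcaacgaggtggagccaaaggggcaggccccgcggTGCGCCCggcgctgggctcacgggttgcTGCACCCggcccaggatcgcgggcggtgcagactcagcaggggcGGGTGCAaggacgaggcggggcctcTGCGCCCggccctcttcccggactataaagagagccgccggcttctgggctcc
MT2A: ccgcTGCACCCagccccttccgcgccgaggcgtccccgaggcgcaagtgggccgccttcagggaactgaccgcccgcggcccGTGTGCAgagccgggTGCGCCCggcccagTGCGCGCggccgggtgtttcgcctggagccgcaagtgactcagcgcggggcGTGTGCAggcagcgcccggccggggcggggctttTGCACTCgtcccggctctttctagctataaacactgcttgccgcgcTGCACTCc

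Targets of NRF2 split into a larger set that fell and a smaller set that rose. Of 30 members tested, 17 were lower and 7 higher, against 9.08% and 11.5% of all genes, and the median log2 fold change was -0.22. The members that fell include genes of redox, heme and iron metabolism. TXNRD1, thioredoxin reductase, was at 1032, 1038 and 1036 CPM in DMSO and at 671, 669 and 680.4 CPM with SGN-2FF (log2 fold change -0.62, standard error 0.03, adjusted p = 4.04e-14 from edgeR's test). HMOX1, which degrades heme, fell from 40.3, 37.3 and 39.1 to 23.05, 22.4 and 22.5 CPM. GCLM, a subunit of the enzyme that limits glutathione synthesis, fell from 97.1, 100.2 and 96.9 to 62.7, 62.2 and 63.8 CPM. In each of these genes the SGN-2FF libraries differed from each other by far less than they differed from DMSO. NQO1, a quinone reductase gene, fell from 604, 585 and 575 to 402, 371 and 387 CPM, and 19.4% of its exon bases lie opposite another gene. OSGIN1, a growth inhibitor gene, fell from 30.98, 27.5 and 28.2 to 12.03, 13.1 and 13.3 CPM, and shares 8.2% of its exon bases with MLYCD. The ferritin genes FTH1 and FTL, which store iron, had log2 fold changes of -0.45 and -0.47. Of the exon bases of FTH1, 63.2% lie opposite BEST1, and 8.3% of its 100-base windows recur in pseudogenes, so its counts are uncertain. TRIM16 (-0.64) shares 13.2% of its windows with TRIM16L, and 23.5% of its exon bases with another gene on the same strand.

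The members that rose include the steroid-converting aldo-keto reductases. AKR1C3, which makes testosterone from androstenedione, rose from 28.9, 28.2 and 29.3 to 49.3, 46.9 and 45.96 CPM (log2 fold change 0.72, standard error 0.06). AKR1C2 rose from 30.8, 29.4 and 31.4 to 41.3, 40.7 and 44.5 CPM. AKR1C1 rose from 3.75, 3.903 and 4.28 to 7.60, 6.23 and 5.78 CPM. These paralogs share 2.0%, 20.1% and 13.6% of their 100-base windows with each other or with AKR1C4, so reads could have been divided between them. GSTM3, a glutathione transferase gene, also rose (0.41). NFE2L2, the gene of NRF2, was at 55.5, 52.9 and 53.1 CPM in DMSO and at 50.8, 52.5 and 51.3 CPM with SGN-2FF (adjusted p = 0.452 in the same test). Its log2 fold change was -0.06 and the libraries did not overlap, and 24.8% of its exon bases lie opposite other genes. The list had 16 to 17 lower members whichever library was left out, and 17 lower and 6 higher with the GC correction.

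Promoters of TXNRD1 and GCLM are shown because NRF2 acts through the antioxidant response element. Capitals mark the match to TGACNNNGC on either strand. It starts 99 bases before the start in TXNRD1 (chr12:104215529-104215778, plus strand) and 34 bases before it in GCLM (chr1:93909431-93909680, minus strand), in RefSeq sequence of GRCh38.p14. The motif was found in 10.9% of all 35116 promoters and in 8 of the 25 list members with an entry. HMOX1 and FTH1 have no entry.
TXNRD1: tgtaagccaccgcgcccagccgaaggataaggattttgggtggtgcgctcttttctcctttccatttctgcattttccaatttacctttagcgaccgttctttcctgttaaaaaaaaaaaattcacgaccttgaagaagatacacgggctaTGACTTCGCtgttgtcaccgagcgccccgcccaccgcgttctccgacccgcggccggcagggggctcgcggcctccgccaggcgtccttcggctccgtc
GCLM: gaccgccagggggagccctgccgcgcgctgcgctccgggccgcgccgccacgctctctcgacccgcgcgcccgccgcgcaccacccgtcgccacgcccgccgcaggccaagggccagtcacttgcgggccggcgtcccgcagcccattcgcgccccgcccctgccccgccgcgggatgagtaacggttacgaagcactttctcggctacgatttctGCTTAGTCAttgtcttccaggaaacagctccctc

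Most ATF4 targets were lower, and most genes of the endoplasmic reticulum chaperones did not pass. Of 37 ATF4 targets, 22 were lower and 1 higher, against the same shares of all genes, with a median log2 fold change of -0.24. CHAC1, which degrades glutathione, was at 15.1, 13.3 and 15.01 CPM in DMSO and at 7.29, 8.42 and 7.27 CPM with SGN-2FF (log2 fold change -0.90, standard error 0.11, adjusted p = 3.57e-07 from edgeR's test). SLC7A11, the cystine transporter gene that NRF2 also induces, fell from 120.3, 124 and 118 to 64.2, 75.9 and 75.9 CPM. ASNS, asparagine synthetase, fell from 307, 326 and 317 to 234, 234 and 221 CPM, and 49.3% of its exon bases are shared with another gene on the same strand. Every SGN-2FF library of these genes was below every DMSO library, which for CHAC1 was a condition of being named among the 12 largest falls. ALDH1L2, of mitochondrial folate metabolism, fell by 0.42 on the log2 scale, and TRIB3, a pseudokinase gene, fell from 160.3, 140.2 and 156 to 120.4, 118 and 113 CPM. ATF4 itself fell by 0.13 on the log2 scale, from 489, 478 and 490.3 to 454, 446 and 434 CPM. The 1 higher member, ATF5, had 0.19, and 19.5% of its exon bases lie opposite NUP62 and IL4I1. DDIT3, the stress factor CHOP, did not pass (-0.07). The number of lower members was 20 to 23 whichever library was left out and 24 with the GC correction.

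Cytosolic aminoacyl-tRNA synthetases, which load amino acids onto tRNAs and include ATF4 targets, had 9 lower and 1 higher of 19. Of all genes, 9.08% were lower and 11.5% higher. IARS1 fell from 435, 455 and 434 to 379, 371 and 386 CPM, and WARS1 (-0.23) and SARS1 (-0.20) fell too. The number of lower members was 5 without SGN-2FF replicate 2. Of 23 genes for folding or degradation in the endoplasmic reticulum, 2 were lower (SEL1L and DNAJC3) and 1 higher (MANF), with a median of -0.06. The 2 falls were lost without SGN-2FF replicate 1 (adjusted p = 0.11 and 0.142 from edgeR's test), and the rise without SGN-2FF replicate 2 (0.0918). Over the alternatives SEL1L lost its call in 3, DNAJC3 in 7 and MANF in 5. With the GC correction 7 were lower and 2 higher. The chaperone gene HSPA5 was at 1729, 1704 and 1668 and at 1621, 1646 and 1618 CPM (-0.06) and did not pass.

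Promoters of CHAC1 and ASNS are shown because ATF4 acts through the amino acid response element. Capitals mark the match to TGATGNAA on either strand. It starts 209 bases before the start in CHAC1 (chr15:40953221-40953470, plus strand), where the reverse strand matches, and 68 bases before it in ASNS (chr7:97872409-97872658, minus strand). The bases are RefSeq's for GRCh38.p14. The motif was found in 3.14% of all 35116 promoters and in 6 of the 30 list members with an entry. SLC7A11 has no entry.
CHAC1: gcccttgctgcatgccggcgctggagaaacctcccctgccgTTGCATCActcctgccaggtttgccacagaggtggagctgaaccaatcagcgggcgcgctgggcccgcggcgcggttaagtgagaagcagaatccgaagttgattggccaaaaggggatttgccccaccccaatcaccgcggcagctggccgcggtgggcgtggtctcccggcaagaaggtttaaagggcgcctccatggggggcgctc
ASNS: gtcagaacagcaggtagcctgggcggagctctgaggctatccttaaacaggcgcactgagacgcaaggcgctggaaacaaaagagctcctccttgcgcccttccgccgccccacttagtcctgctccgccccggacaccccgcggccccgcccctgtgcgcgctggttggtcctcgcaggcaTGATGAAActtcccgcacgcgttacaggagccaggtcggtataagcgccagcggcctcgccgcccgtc

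Of 25 genes of cholesterol synthesis and uptake, 12 were lower and 0 higher, against 9.08% and 11.5% of all genes, with a median of -0.14 (0 higher at an unadjusted p under 0.05, and 0 in DESeq2 and limma-voom). STARD4, which carries sterols between membranes, fell from 38.3, 44.8 and 40.8 to 28.3, 26.7 and 35.8 CPM. HMGCS1, of the mevalonate pathway, fell from 165, 166 and 160.1 to 131, 128 and 131 CPM, with 37.7% of its exon bases opposite another gene. INSIG1, the sterol-regulated brake of the pathway, fell from 58.9, 59.7 and 58.8 to 50.9, 46.2 and 46.6 CPM. SQLE (-0.09) and the transcription factor gene SREBF2 (-0.06) did not pass. The list had 7 lower members without DMSO replicate 1 and 14 without DMSO replicate 2. Of 20 fatty acid synthesis genes, 3 were higher and 2 lower (1 to 5 higher and 0 to 3 lower over the alternatives). ELOVL5, an elongase gene, rose from 230.4, 219.9 and 211 to 278, 262 and 278 CPM and kept its call in every alternative.

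Of 13 genes of GDP-fucose synthesis and salvage tested, 1 was higher and 0 lower, where 11.5% and 9.08% of all genes were, and 0 were lower at an unadjusted p under 0.05, in DESeq2 or in limma-voom. The higher one was FUOM, fucose mutarotase, which interconverts the ring forms of free fucose and rose from 17.8, 17.4 and 18.3 to 25.1, 23.8 and 23.2 CPM (log2 fold change 0.43, standard error 0.07, adjusted p = 0.000146 from edgeR's test). FCSK, fucokinase, the first enzyme of salvage, was at 33.95, 35.6 and 34.5 CPM in DMSO and at 40.8, 39.2 and 36.7 CPM with SGN-2FF, with libraries that did not overlap, and did not pass (adjusted p = 0.0576). FPGT, the second enzyme of salvage, was at 13.6, 13.8 and 13.5 and at 10.3, 13.6 and 13.1 CPM and did not pass. GMDS was at 16.8, 16.9 and 15.8 and at 16.1, 14.2 and 17.1 CPM, and the GDP-fucose transporter gene SLC35C1 at 21.01, 21.6 and 20.7 and at 22.3, 21.1 and 21.1 CPM. Both overlapped between conditions. GFUS had 4 to 15 counts per library and was not tested.

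Of 13 fucosyltransferase genes, 8 were tested and 0 passed in edgeR's test, in DESeq2 or in limma-voom, with 2 lower and 1 higher at an unadjusted p under 0.05. Among all genes, 20.6% passed in edgeR's test. POFUT1, which puts fucose on the repeats of Notch receptors, was at 89.6, 81.9 and 80.1 and at 78.8, 79.4 and 70.2 CPM (log2 fold change -0.14, standard error 0.05). FUT8, the core fucosyltransferase of N-glycans, was at 17.4, 16.8 and 17.4 and at 16.5, 15.6 and 15.4 CPM. POFUT2, FUT4 and FUT11 had log2 fold changes of 0.13, -0.15 and -0.01. With the GC correction 2 genes, FUT1 and POFUT1, were lower. FUT3, FUT5, FUT6, FUT7 and FUT9 had at most 5 counts in any library.

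Of 19 sialic acid genes, 1 was higher and 4 lower, against 11.5% and 9.08% of all genes (1 to 3 higher and 2 to 4 lower over the alternatives). ST6GAL1, which adds α2,6-linked sialic acid to N-glycans, rose from 22.5, 20.2 and 25.5 to 34.1, 36.1 and 36.03 CPM (log2 fold change 0.65, standard error 0.07). ST3GAL1, which caps O-glycans, fell from 314, 294 and 318 to 253, 263 and 259.9 CPM, and CMAS, which activates sialic acid, from 152, 148 and 156 to 137, 135 and 135 CPM. These 3 kept their call in every alternative. ST3GAL3 (-0.36) lost its call in 5 alternatives, 3 of them with 1 library left out (adjusted p = 0.138 from edgeR's test without DMSO replicate 3). ST6GALNAC2 (-0.54) lost its call in 6, 4 of them with 1 library left out (0.150 without SGN-2FF replicate 1). It shares 39.8% of its exon bases with another gene on the same strand. Of 32 N-glycan genes, 2 were higher and 6 lower, against the same shares of all genes (0 to 4 higher and 1 to 7 lower over the alternatives). MAN1A1, a mannosidase gene of the Golgi, fell from 29.3, 30.8 and 28.99 to 24.7, 23.5 and 24.9 CPM. Without SGN-2FF replicate 1 only 2 of the N-glycan genes were lower.

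Of 24 genes of Notch receptors, ligands and targets, 3 were higher and 2 lower (1 to 4 higher and 0 to 4 lower over the alternatives), close to the 11.5% and 9.08% of all genes. NOTCH1 was at 78.1, 72.3 and 82.1 and at 76.3, 77.6 and 71.5 CPM, and NOTCH2 had a log2 fold change of 0.0062. Neither passed. The ligand gene JAG2 rose from 68.2, 61.4 and 71.6 to 81.3, 84.1 and 82.1 CPM and kept its call in every alternative. The target gene HES1 rose by less, from 27.3, 24.4 and 27.2 to 28.9, 30.6 and 31.6 CPM. HES1 lost its call in 7 of the 16 alternatives, 4 of them with 1 library left out (adjusted p = 0.146 from edgeR's test without DMSO replicate 2).

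**Figure D3:**
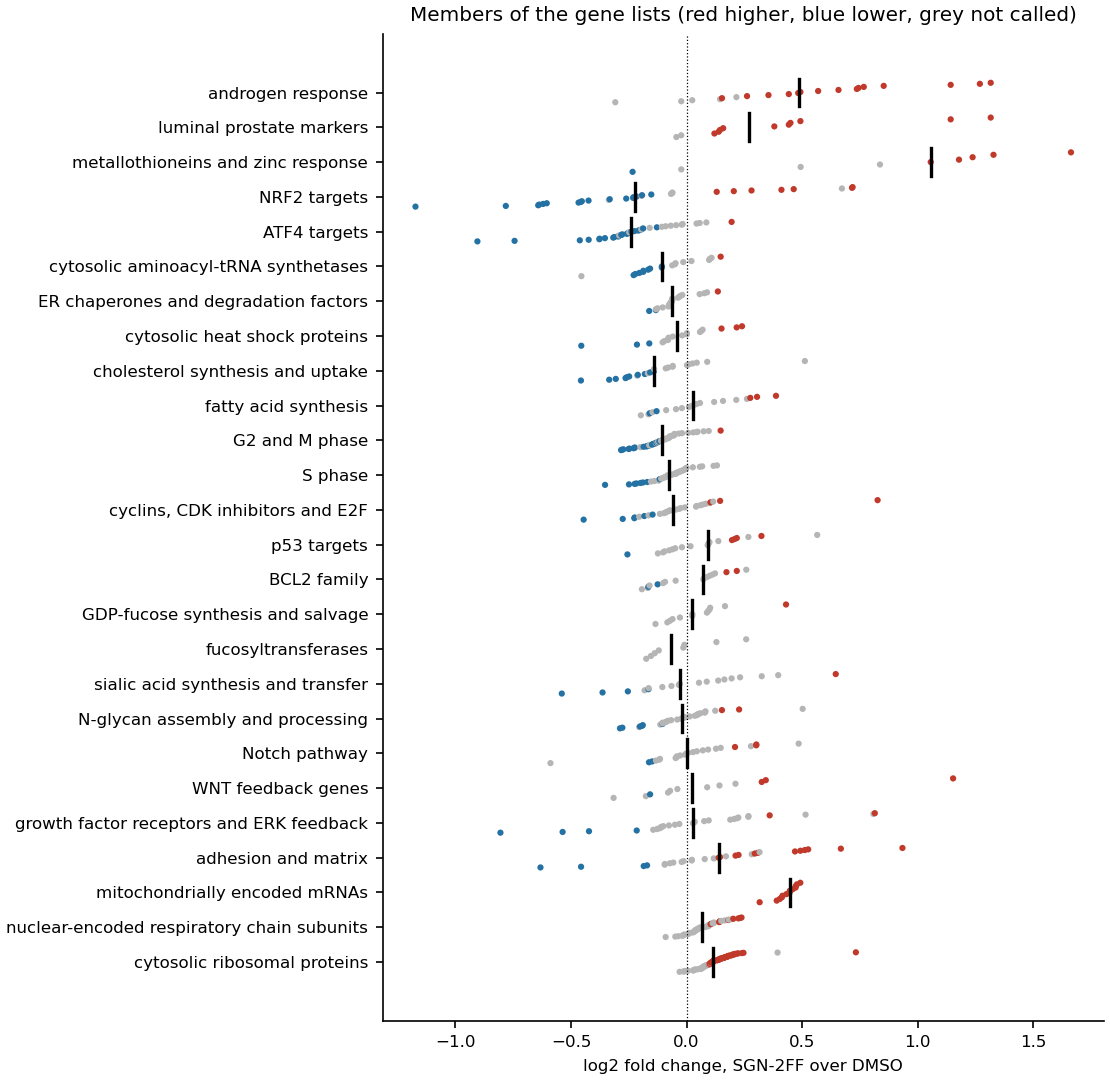
Log2 fold change of SGN-2FF over DMSO of each tested member of 26 gene lists, with red for higher, blue for lower and grey for genes that did not pass; bars are list medians. Androgen response genes and metallothioneins sit to the right of 0, NRF2, ATF4 and cholesterol genes mostly to the left, and fucosyltransferases around 0.

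Of the 54 G2 and M phase genes, 19 were lower and 1 higher, against 9.08% and 11.5% of all genes, and the other 34 did not pass. The falls were at most 0.28 on the log2 scale. BUB1, a spindle checkpoint kinase gene, fell from 101, 97.1 and 98.8 to 80.7, 79.4 and 85.7 CPM, and CKAP2L from 64.3, 72.1 and 64.6 to 56.4, 51.1 and 58.2 CPM. Of 42 S phase genes, 8 were lower and 0 higher (1 higher at an unadjusted p under 0.05, and 0 in DESeq2 and limma-voom), and 34 did not pass. There were 5 lower without SGN-2FF replicate 2 and 11 without SGN-2FF replicate 3. RRM2, which supplies deoxynucleotides, fell from 457, 459.5 and 446 to 348, 359 and 360.1 CPM, a log2 fold change of -0.35, the largest of the list. The number of lower G2 and M phase genes was 10 without SGN-2FF replicate 2 and 24 with the GC correction. PCNA (-0.12) and CDK1 (-0.12) did not pass.

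In the list of cell cycle regulators, which holds cyclins, CDK inhibitors, E2F factors and BTG1 among others, 3 of 28 were higher and 6 lower. Of all genes, 11.5% were higher and 9.08% lower, here and for the p53 and BCL2 lists below. Over the alternatives 1 to 5 higher and 5 to 10 lower were counted, with 5 higher and 10 lower under the GC correction and 1 higher without DMSO replicate 1. BTG1, an antiproliferative gene, rose from 227, 214 and 214 to 391, 365 and 405 CPM (log2 fold change 0.83, standard error 0.04) and was among the 10 genes of smallest p. CDK6, a kinase gene of the G1 phase, fell from 52.6, 53.3 and 55.05 to 38.95, 37.2 and 42.4 CPM, and its partner CCND1 from 2534, 2415 and 2535 to 2177, 2109.6 and 2112 CPM. CDKN2C, an inhibitor gene of CDK4 and CDK6, fell from 65.7, 59.00 and 62.1 to 51.7, 51.2 and 51.5 CPM. CDKN1A (-0.08) and CDKN1B (0.06) did not pass. Of 20 p53 targets, 4 were higher and 1 lower (1 to 5 higher and 1 to 2 lower over the alternatives). GADD45A rose from 17.7, 16.6 and 15.97 to 21.6, 21.1 and 20.3 CPM and RRM2B fell from 55.9, 59.4 and 54.6 to 45.9, 46.7 and 49.8 CPM. Of 17 BCL2 family genes, 2 were higher and 2 lower, all by 0.22 or less (0 to 2 higher and 0 to 3 lower over the alternatives). BAX, the largest of these changes (0.22), lost its call in the fit of all 14 libraries and without DMSO replicate 1 (adjusted p = 0.051 from edgeR's test in the latter).

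Single genes of growth factor signalling moved strongly while most of the list did not pass. Of 28 growth factor receptors and ERK feedback genes, 2 were higher and 4 lower, against 11.5% and 9.08% of all genes. Over the alternatives 2 to 4 were higher and 2 to 6 lower. IGF1R, the receptor of insulin-like growth factor, rose from 11.6, 11.8 and 11.2 to 19.2, 21.4 and 20.1 CPM (log2 fold change 0.81, standard error 0.09). IGFBP3, which binds and sequesters that growth factor, fell from 217, 197 and 223 to 122, 119 and 123 CPM (log2 fold change -0.81, standard error 0.05). IGFBP2 rose from 140.1, 126 and 136 to 173, 177 and 164 CPM. These 3 genes of the same axis kept their call in all 16 alternatives. ETV5, an ERK-induced factor gene, fell from 28.5, 26.8 and 27.1 to 20.4, 18.98 and 17.4 CPM. EGFR, ERBB2 and MET did not pass, at -0.12, -0.03 and -0.08.

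Among WNT feedback genes, 3 of 12 were higher and 1 lower, against 11.5% and 9.08% of all genes (3 higher and 0 to 2 lower over the alternatives). LGR5, which encodes a receptor of R-spondins, rose from 6.61, 6.79 and 6.13 to 13.4, 14.3 and 15.8 CPM (log2 fold change 1.15, standard error 0.11). RNF43 rose from 54.1, 49.9 and 50.2 to 63.9, 67.1 and 64.3 CPM, with 68.4% of its exon bases shared with another gene on the same strand. MYC rose from 217, 206 and 211 to 268, 269.7 and 255.7 CPM. The secreted WNT inhibitor gene DKK1 was at 59.1, 51.3 and 58.9 and at 58.7, 51.03 and 55.4 CPM, and did not pass. AXIN2, the usual WNT target, had 0.09 and did not pass.

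Of 29 adhesion and matrix genes, 12 were higher and 4 lower, against 11.5% and 9.08% of all genes. THBS1, thrombospondin, rose from 118, 107 and 106 to 172, 173 and 182 CPM (log2 fold change 0.67, standard error 0.05). HSPG2, perlecan, at 17 to 37 counts per library, had a log2 fold change of 0.93. The fibronectin gene FN1 (0.49) and CD44, a hyaluronan receptor gene (0.47), were higher too. LAMA3, a laminin chain gene, fell from 21.96, 20.9 and 21.1 to 13.97, 17.2 and 15.2 CPM, while LAMB3, which joins it in the same laminin, rose (0.51). LAMB3 lost its call in 3 alternatives, 2 of them with 1 library left out (adjusted p = 0.131 from edgeR's test without SGN-2FF replicate 2). CDH2, N-cadherin, was at 5.38, 5.26 and 6.51 and at 2.33, 4.33 and 4.22 CPM. CDH2 lost its call in 4 alternatives, 2 of them with 1 library left out (0.104 without SGN-2FF replicate 1).

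Mitochondrially encoded genes took a larger share of the counts with SGN-2FF. They held 6.05%, 7.03% and 5.98% of the counts in the DMSO libraries and 8.27%, 8.27% and 8.68% in the SGN-2FF libraries. All 13 mRNAs were higher in edgeR's test and 0 lower, against 11.5% and 9.08% of all genes, with log2 fold changes from 0.32 to 0.49. COX1, a subunit of cytochrome c oxidase, was at 10944, 12421 and 10590.5 CPM in DMSO and at 15367, 15258 and 16038 CPM with SGN-2FF (log2 fold change 0.46, standard error 0.05), with 27.9% of its 100-base windows also in a nuclear pseudogene. ND1, of complex I, was at 2737, 3175 and 2736 and at 3958, 3918 and 4122 CPM. The rRNA gene RNR2 rose from 6119, 6726 and 5800.4 to 8786, 9132 and 9024 CPM. DMSO replicate 2 was the highest DMSO library for each of these genes and still lay below every SGN-2FF library. These calls depended on the fit: 10 of 13 mRNAs were higher without DMSO replicate 1, and 0 in the fit of all 14 libraries, where the spread is shared by all treatments. In that fit ND1 had adjusted p = 0.108 from edgeR's test. Without the mitochondrial genes in the fit, 2894 of the 2946 differentially expressed genes remained.

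Of 48 nuclear genes of the respiratory chain, 10 were higher and 0 lower, against 11.5% and 9.08% of all genes, and 38 did not pass, with a median of 0.07 (0 lower at an unadjusted p under 0.05, and 0 in DESeq2 and limma-voom). Among them, COX7B rose from 168, 178 and 168 to 206, 202 and 193 CPM. The number of higher members was 4 without SGN-2FF replicate 1, 16 without SGN-2FF replicate 3, 20 with the GC correction and 2 in the fit of all 14 libraries. Cytosolic ribosomal protein genes were higher in 44 of 76 cases and lower in 0, with a median of 0.11 (0 lower at an unadjusted p under 0.05, and 0 in DESeq2 and limma-voom). RPL38 rose from 257, 287 and 265 to 327, 325 and 308 CPM and RPL23 from 581, 580.5 and 561 to 693, 679 and 661 CPM. Their summed share was 4.52% to 4.58% of counts in DMSO and 4.68% to 4.88% with SGN-2FF. The number of higher members fell to 24 without SGN-2FF replicate 2 and to 8 in the fit of all 14 libraries. Of 28 ribosome biogenesis factors, 3 were higher, MYC and NOP2 among them, and 2 lower (2 to 5 higher and 0 to 3 lower over the alternatives), and 21 had a log2 fold change above 0. NOP2 shares 54.4% of its exon bases with another gene on the same strand.

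For the remaining lists the counts stand against 11.5% higher and 9.08% lower of all genes. Of 27 hypoxia and glycolysis genes, 3 were higher and 1 lower, and with the GC correction 4 were higher and 5 lower. NDUFA4L2, a hypoxia-induced gene, rose from 17.3, 16.5 and 16.03 to 25.7, 23.6 and 23.8 CPM, while VEGFA was at 92.9, 98.4 and 95.98 and at 106, 105 and 101 CPM and did not pass (adjusted p = 0.0548 from edgeR's test). Of 33 proteasome genes, 1 was higher and 4 lower (0 to 2 higher and 1 to 6 lower over the alternatives). Of 29 lysosome genes, 1 was higher and 3 lower (7 lower with the GC correction), among them TFEB, the master regulator gene of lysosomes (0.40), and the autophagy adaptor gene SQSTM1 (-0.25), an NRF2 target as well. Of 18 heat shock genes, 3 were higher and 3 lower (1 to 3 higher and 2 to 5 lower over the alternatives). The cochaperone gene DNAJB4 fell from 20.8, 22.9 and 20.4 to 15.5, 14.7 and 16.6 CPM. Of 32 splicing regulators, 4 were higher and 3 lower. With the GC correction 11 were higher, and without DMSO replicate 1 or in the fit of all 14 libraries 1 was. RBFOX2, at 25 to 116 counts per library, fell from 6.499, 6.28 and 4.53 to 3.18, 2.99 and 1.95 CPM, and ESRP2, of epithelial splicing, rose from 115, 123 and 119 to 139, 149 and 142 CPM. Of 16 histone genes, 4 were higher and 2 lower (1 to 5 higher and 0 to 2 lower over the alternatives). H2BC12 rose from 16.2, 15.05 and 13.99 to 21.2, 20.02 and 19.9 CPM, with 22.5% of its windows shared with other loci. Of 15 antigen presentation and interferon genes that could be tested, 1 was higher and 3 lower (1 to 2 higher and 1 to 3 lower over the alternatives). IFITM3 rose (0.35) and OAS3 fell (-0.32).

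The genes that rose and those that fell differed in build. The median GC content of the longest transcript was 55.0% for higher genes, 43.0% for lower genes and 47.7% for those that did not pass. The median span from start to end was 16.2 kb, 51.8 kb and 29.0 kb in the same order, and the median longest transcript had 3192, 5273 and 3734 bases. The genes were divided by GC content into 10 bins of nearly equal size. In the lowest bin 3.45% were higher and 16.6% lower, and in the highest 21.5% were higher and 2.30% lower. In those bins the median deviation of DMSO replicate 2 was 0.076 and -0.112, that of SGN-2FF replicate 1 was -0.074 and 0.087, and that of SGN-2FF replicate 3 was 0.026 and -0.032 on the log2(CPM + 1) scale. The trend was thus in 2 of the 3 SGN-2FF libraries and, in the opposite sense, in 1 of the 3 DMSO libraries and more weakly in SGN-2FF replicate 3. The part of this trend in the calls of GC-rich and GC-poor genes was tested by the GC correction alone, which left 2500 of the 2946 calls. With it, 15 androgen response and 5 metallothionein genes were higher, 17 NRF2, 24 ATF4 and 13 cholesterol genes lower, and 13 mitochondrial mRNAs and 50 ribosomal protein genes higher. Other lists changed balance: hypoxia and glycolysis genes went from 3 higher and 1 lower to 4 and 5, and fatty acid synthesis genes from 3 and 2 to 2 and 2.

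**Figure D4:**
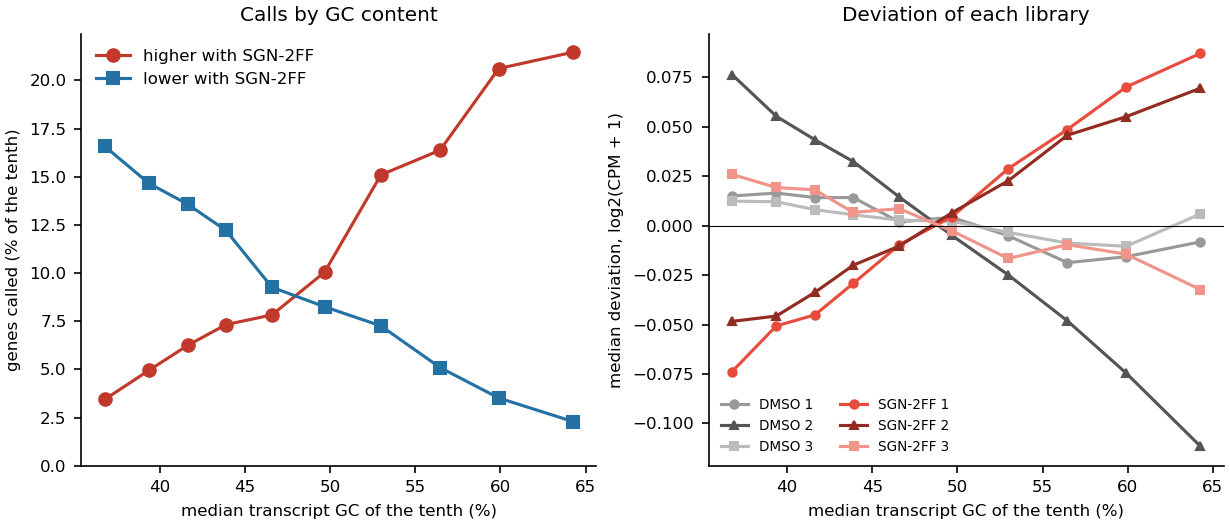
Left, percent of genes called higher (circles) or lower (squares) with SGN-2FF in 10 bins of transcript GC content (%), from 3.45% and 16.6% in the lowest bin to 21.5% and 2.30% in the highest. Right, median deviation of each library from the mean of all 6 on the log2(CPM + 1) scale in the same bins. DMSO replicate 2 slopes down and SGN-2FF replicates 1 and 2 slope up. SGN-2FF replicate 3 slopes down by less, and DMSO replicates 1 and 3 are nearly flat.

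Gene classes and chromosomes had unequal counts too. Of 799 long noncoding RNA genes tested, 85 were higher and 17 lower, while of 12967 protein-coding genes 1495 were higher and 1274 lower. On the gene-dense chromosome 19, 153 of 1066 genes were higher and 23 lower. On chromosome 18, 14 of 202 were higher and 37 lower, and on chromosome 13, 8 of 240 were higher and 38 lower. Of 20 tested genes of the mitochondrial chromosome, 19 were higher. Of all genes, 11.5% were higher and 9.08% lower. These counts are from the fit without the GC correction, and the part of GC content in them was not tested.

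The named genes can be set beside the other inhibitors, each compared with the same 3 DMSO libraries. SGN-2FF is a fluorinated fucose analogue, both Fucotrims derive from rhamnose-1-phosphate, and P-SiaFNEtoc inhibits sialylation. The doses differ and the controls are shared, so the values are given side by side and no difference between compounds was tested. KLK3 had log2 fold changes of 1.32 with SGN-2FF and, for the other compounds, 1.15 (Fucotrim I), 0.59 (Fucotrim II) and 0.59 (P-SiaFNEtoc). In the same order, TMPRSS2 had 1.14, 1.38, 1.41 and 0.67, and FKBP5 0.35, 0.98, 0.68 and -0.15. MT1G had 1.66, 1.26, 2.01 and 0.57. These genes had positive values with all 4 compounds, except FKBP5 with P-SiaFNEtoc. The NRF2 target OSGIN1 had -1.17, -1.07, -1.32 and -0.0022, and TXNRD1 -0.62, -0.70, -0.71 and -0.08. For OSGIN1 and TXNRD1 the value was near 0 with P-SiaFNEtoc. Other NRF2 targets varied with that compound: GCLM had -0.19, HMOX1 0.20, GSTM3 0.65 and AKR1C2 1.29. NQO1, FTH1 and TRIM16 had 0.04, -0.0077 and -0.02.

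Some genes took another sign or size with SGN-2FF than with the Fucotrims. CYP1A1 had -0.89 (SGN-2FF), 1.18 (Fucotrim I), 0.51 (Fucotrim II) and 0.03 (P-SiaFNEtoc). DKK1 had -0.04, -1.45, -1.81 and 0.26, and CCN2, a matrix-associated growth factor gene, 0.53, -1.01, -1.49 and 0.57. LAMA3 had -0.46, 0.34, 1.20 and -0.65. In CYP1A1 and LAMA3 the value with SGN-2FF was negative and both Fucotrim values were positive, and in CCN2 the reverse. The call of CCN2 with SGN-2FF was lost without DMSO replicate 1 (adjusted p = 0.0531 from edgeR's test). HSPA5 had -0.06, -1.47, -0.30 and 0.02, and CHAC1 -0.90, -2.27, -1.46 and -0.92. DHRS2 had -1.05, -2.39, -3.07 and -0.73, a negative value with each compound. COX1 had 0.46, 1.07, 1.51 and 0.10.

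**Figure D5:**
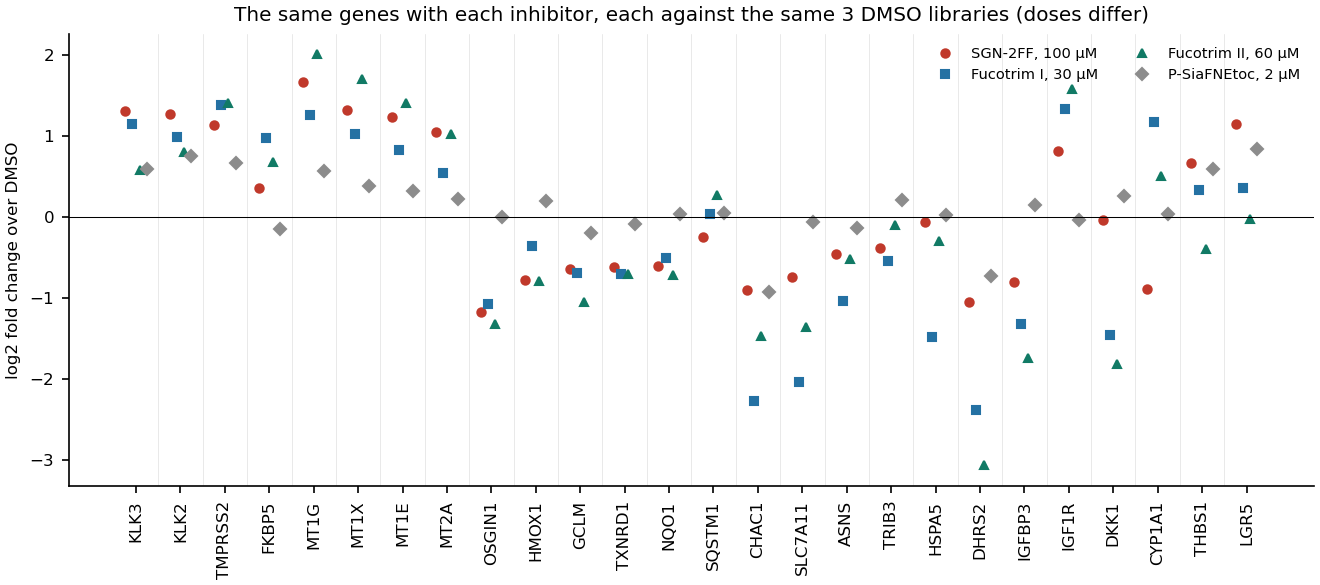
Log2 fold change over the same 3 DMSO libraries of 26 genes with SGN-2FF at 100 μM (circles), Fucotrim I at 30 μM (squares), Fucotrim II at 60 μM (triangles) and P-SiaFNEtoc at 2 μM (diamonds). Doses differ, so distances between symbols are no test of the compounds; CYP1A1 is negative with SGN-2FF and positive with both Fucotrims.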

How the data were processed

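RNA of CWR22RV1 cells was sequenced as stranded, poly(A)-selected libraries, in single reads of 100 bases. According to the study's methods, reads were trimmed with Cutadapt, aligned to hg38 with HISAT2 and counted per gene with featureCounts. Strand setting, treatment of reads that map more than once and annotation release are not given in the sources used here. The authors deposited the result as raw counts per NCBI gene number, with no normalization. Symbols for 27845 of 28395 genes came from the series' other tables and 1 from RefSeq, and the 549 genes without a symbol held 0.0538% of the counts.

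Genes were kept by edgeR's filterByExpr (minimum count 10, minimum total 15), scaled by TMM and tested with the robust quasi-likelihood test of edgeR 4.0.16 (limma 3.58.1, R 4.3.3), SGN-2FF against DMSO, with Benjamini-Hochberg adjustment and a threshold of 0.05. The CPM printed are scaled by TMM. Fold changes with the other inhibitors came from the same fit of each inhibitor with DMSO. On data simulated for this comparison, 100% of genes changed by 1 and 90% of those changed by 0.5 on the log2 scale were recovered. The simulation changed 200 of 14312 genes, all averaging at least 50 counts, whereas 20.6% of genes were called in the data. Of the calls in the simulated data, 5.94% were of unchanged genes. No other size was simulated. The differentially expressed genes changed by a median of 0.25 in either direction, so recovery at that size was not tested. Whether these percentages hold with more genes changed, for genes of few counts, or under the GC trends of single libraries, was not tested either. Counting depth limits genes of few counts most.

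Alternatives were DESeq2's size factors, DESeq2 1.42.0, limma-voom, no filter, at least 10 counts in every library, a threshold of 0.01, the replicate number as a block, all 14 libraries in 1 fit and leaving out each library. Leaving out the mitochondrial genes and the correction for GC content were added after seeing the data. Named are the 12 largest rises and falls among genes averaging 50 counts or more whose libraries did not overlap, the 10 genes of smallest p, the 6 largest rises and falls in CPM, up to 4 members per direction of each of 37 gene lists, and genes fixed by name. Other genes named were chosen after their values were seen. Members and lists were chosen with earlier results of these data known. Some genes are not reported here.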

Additional observations from a re-analysis of the deposited data

How the results depend on the processing

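The 2946 differentially expressed genes became 1942 with DESeq2's test, 1609 at a threshold of 0.01 and 1695 in the fit of all 14 libraries, and 1642 to 3109 when 1 library was left out, with SGN-2FF replicate 2 and SGN-2FF replicate 3 giving the ends. Without DMSO replicate 1, DMSO replicate 3 or SGN-2FF replicate 1 there were 2236, 2112 and 1981. The 1647 higher genes became 996 at 0.01, 934 in the fit of all 14 libraries and 1000 to 1695 when 1 library was left out. The 1299 lower genes became 843 with DESeq2's test, 613 at 0.01, 761 in the fit of all 14 libraries and 642 to 1414 when 1 library was left out. The 381 genes beyond 0.58 became 238 with DESeq2's test and 294 to 422 when 1 library was left out. The cause was not tested, apart from the fewer libraries and the stricter threshold themselves. Same-numbered libraries did not deviate together (correlations 0.066, -0.026 and -0.068). These deviations also hold the GC trends of single libraries, so they cannot decide whether the replicate number pairs them. With the replicate block 2868 genes were differentially expressed, 1643 of them higher, and 2757 were shared.

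Of 188 named genes that were differentially expressed, 105 kept that call in each of the 16 alternatives that tested them, and 0 changed sign. The sign changed for 6 genes that did not pass. With the GC correction XBP1 was at 0.013 and SLC35C1 at -0.047. When 1 library was left out, GMDS ranged from -0.133 to 0.0060, SLC35C1 from -0.0034 to 0.041, FUT11 from -0.051 to 0.022, DKK1 from -0.107 to 0.016 and NOTCH2 from -0.022 to 0.022. NOTCH2 was at -0.0034 with no filter and at -0.0062 in the fit of all 14 libraries.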
